A study of Mus musculus with 29 samples.

Results

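Cohesin, its release factor Wapl, its loader Nipbl and the boundary factor Ctcf were followed through pro-B cells with and without Pax5, the transcription factor that commits lymphoid progenitors to the B cell lineage. The 10 genes were chosen by name and not by a rule on measured values, but with earlier results of these data known. They are Smc1a, Smc3, Rad21, Stag1, Stag2, Nipbl, Pds5a, Pds5b, Ctcf and Wapl, which the mm9 tables list under its older symbol Wapal. All 10 were found, among 24732 entries in the mm9 tables and among 25588 entries in the mm10 tables.

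Cohesin is a protein ring that holds DNA. Smc1a and Smc3 form its long arms, Rad21 closes them, and Stag1 or Stag2 binds to Rad21. Nipbl loads the ring and drives the extrusion of DNA loops, Wapl together with Pds5a or Pds5b opens the ring and takes it off chromatin, and Ctcf bound to its sites stops the moving ring. In pro-B cells, loop extrusion across the immunoglobulin heavy-chain locus brings distant V genes to the recombination centre, and low Wapl is known to favour long loops there.

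The data were RNA-seq libraries of pro-B cells sorted directly from mouse bone marrow of the strain C57BL/6: 3 wild-type libraries, 2 Pax5(-/-) libraries and 3 libraries labelled Pax5(+/+) Meox2-cre. The Meox2-cre mice carry a Cre recombinase that is active in the early embryo, were pooled and were 3 weeks old; the labels give them an intact Pax5 gene, whereas the list of sequencing experiments in the study gives them 1 intact copy. The age of the wild-type and Pax5(-/-) mice is not given in the sources used here. According to the methods, the surface markers used for sorting were not the same for both genotypes, so that the gate and the genotype cannot be told apart. Nothing in the labels says that libraries of one genotype came from separate mice, and p-values therefore measure the spread between these libraries, which may be technical.

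All values are TPM, an abundance of transcripts divided by gene length and scaled to a sum of 1000000 per library, so that the number of reads behind a value is unknown. Pax5 was listed at 342, 386 and 391 TPM in wild-type cells, and 43.0 and 39.1 TPM remained in Pax5(-/-) cells. The 12066 genes that averaged more than 1 TPM in wild-type or in Pax5(-/-) cells were tested with limma on log2(TPM + 0.5), on which changes of low genes come out too small. The median log2 fold change of all genes tested was -0.12, and it was -0.003 after rescaling by median ratios. All B lineage markers of a list of 8 were lower in Pax5(-/-) cells, with summed levels of 11457 to 13767 TPM in wild-type and of 2927 and 2941 TPM in Pax5(-/-) libraries. In RNA of many cells, fewer cells that express a gene and less RNA per cell cannot be told apart.

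In the absence of Pax5, the release factor rose while most of the ring, loader and boundary genes fell. Wapal was the one member that was higher, and 7 of the other 9 members were lower at an adjusted p-value below 0.05 (limma, Benjamini-Hochberg over all genes tested). Among all genes tested, 15.6% (1885) were called higher and 21.5% (2596) lower, and after rescaling by median ratios 2413 were higher and 2249 lower. Smc1a and Smc3 did not pass. At a change of more than 3-fold with a mean above 5 TPM in one genotype, which are the thresholds of the study, Wapal was called higher and no other member was called in either direction, beside 2.71% of all genes called higher and 3.15% called lower. Both Pax5(-/-) libraries lay above every wild-type library for Wapal and below every wild-type library for the other 9 members; the same held upwards for 26.1% and downwards for 37.4% of all genes tested. The median log2 fold change of the 10 members was -0.62, and that of the 9 members without Wapal was -0.65.

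**Figure D1:**
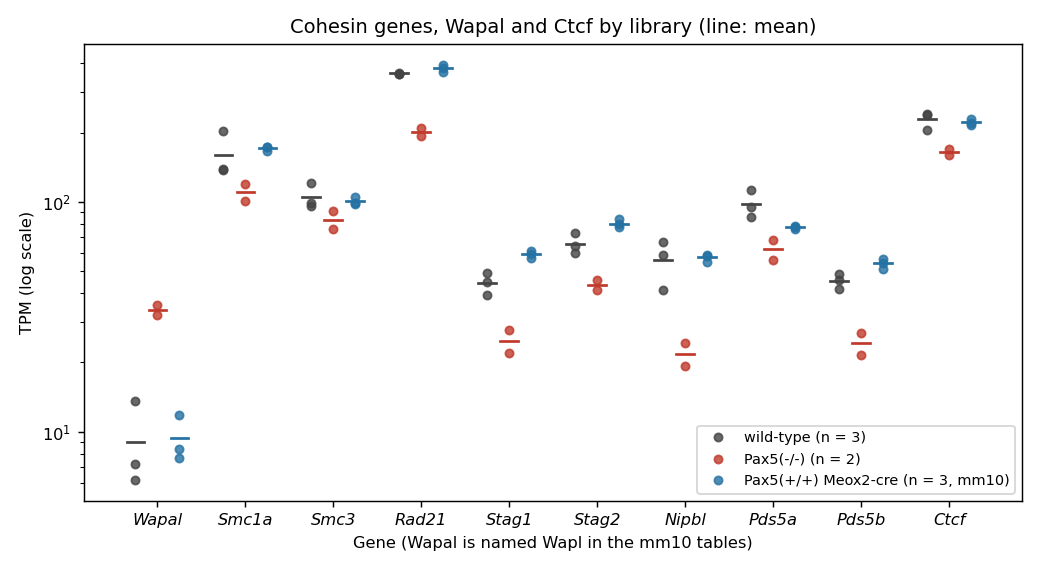
TPM on a log axis for the 10 genes in each library, as points for 3 wild-type, 2 Pax5(-/-) and 3 Meox2-cre libraries, with horizontal bars for the group means. Wapal sits lowest of the 10 in wild-type and Meox2-cre cells and moves up to 32.1 and 35.5 TPM in Pax5(-/-) libraries, whereas the other 9 genes sit lower there than in wild-type cells.

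Wapal, the release factor, lies on chromosome 14 of mm9 from 35487114 to 35561169 on the forward strand. It was listed at 6.16, 7.20 and 13.6 TPM in the wild-type libraries, and at 35.5 and 32.1 TPM in Pax5(-/-) libraries. The lowest Pax5(-/-) library was thus well above the highest wild-type library, although wild-type replicate 3 stood apart from the other wild-type libraries. The mean was 8.98 ± 4.02 TPM (SD, n = 3) in wild-type and 33.8 ± 2.44 TPM (SD, n = 2) in Pax5(-/-) cells, a ratio of 3.76. The log2 fold change was 1.93 (standard error 0.31, 95% interval 1.21 to 2.65, adjusted p = 0.0028 by limma), and 2.57% of all genes tested had a higher one. Relative to the median of all genes it was 2.05. Without wild-type replicate 3 the log2 fold change was 2.26. With 1 Pax5(-/-) library left out, which leaves the other without a spread of its own, it was 1.86 or 2.00 and the adjusted p-value rose to 0.058 or 0.057.

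The promoter of Wapl is shown because this gene moved against the other members, and that of Ctcf because it holds the letters GCGTGAC, a core of the sequence that the paired domain of Pax5 binds. Both are the 250 bases before the annotated start, from RefSeq on GRCm38.p6, at chr14:34673678-34673927 and chr8:105636288-105636537, both on the forward strand. Capitals mark CCAAT or its reverse complement ATTGG in Wapl, and GCGTGAC in Ctcf.
Wapl: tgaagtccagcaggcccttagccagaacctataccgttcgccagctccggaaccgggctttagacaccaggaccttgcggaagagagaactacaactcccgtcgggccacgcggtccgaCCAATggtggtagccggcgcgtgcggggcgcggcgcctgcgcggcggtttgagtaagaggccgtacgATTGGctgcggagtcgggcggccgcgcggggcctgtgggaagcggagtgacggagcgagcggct
Ctcf: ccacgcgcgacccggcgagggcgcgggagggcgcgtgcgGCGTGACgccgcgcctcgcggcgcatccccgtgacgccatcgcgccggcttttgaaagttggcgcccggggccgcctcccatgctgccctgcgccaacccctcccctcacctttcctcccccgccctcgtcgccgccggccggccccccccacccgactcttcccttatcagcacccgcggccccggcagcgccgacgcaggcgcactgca
In Wapl, the CCAAT letters start 131 bases before the start on the forward strand, and ATTGG starts 64 bases before it. In Ctcf, GCGTGAC starts 211 bases before the start. RefSeq promoters were matched for 7 of the 10 members: Wapl, Smc1a, Smc3, Stag1, Pds5a, Pds5b and Ctcf. In windows from 250 bases before to 50 after the start, searched on both strands, GCGTGAC was found in Ctcf and Pds5a and in 2.09% of all 32851 promoters. CCAAT, the letters bound by the factor NF-Y, was found in 4 of the 7 members (Wapl, Smc1a, Stag1 and Pds5b) and in 37.4% of all promoters. TTTCCCGC, a form of the site of E2F factors, was found in Smc1a and Stag1 and in 1.07% of all promoters, and TTTGGCGC, another form, in Pds5a and in 0.514%. The CpG dinucleotide was found 35 times in the window of Wapl, with a median of 41 over the 7 members and of 7 over all promoters. The letters GCGTGAC, TTTCCCGC and TTTGGCGC each hold a CpG, which was more frequent in the matched members than in all promoters. The shares of all promoters are therefore no matched background for the members, and enrichment was not tested. These matches are letters in a window and were not tested for binding.

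Rad21 closes the ring and was the most abundant member in every library. It lies on chromosome 15 of mm9 from 51794151 to 51823306 on the reverse strand. Rad21 was listed at 361, 359 and 364 TPM in the wild-type libraries, and at 210.0 and 192 TPM in Pax5(-/-) libraries. The wild-type values lay close together, and both Pax5(-/-) values were far below them. The mean fell to 55.6% of the wild-type level, a log2 fold change of -0.85 (standard error 0.09, 95% interval -1.06 to -0.63, adjusted p = 4.5e-04 by limma). Among the 7 members that fell, Rad21 had the smallest standard error, and it was the member whose fall was called under all 15 alternatives tried.

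The arms of the ring did not pass the test. Smc1a, on the X chromosome from 148450971 to 148497237, was listed at 138, 139 and 202 TPM in the wild-type libraries, and at 119.6 and 101 TPM in Pax5(-/-) libraries. The log2 fold change of Smc1a was -0.52 (95% interval -0.94 to -0.09, adjusted p = 0.061 by limma), and over 15 alternatives it lay between -0.64 and -0.31. It passed in 1 of them, without wild-type replicate 1 (-0.61, adjusted p = 0.048), and was -0.33 (adjusted p = 0.066) without wild-type replicate 3. Smc3, on chromosome 19 from 53674886 to 53720323, was listed at 96.0, 98.5 and 120.3 TPM and at 91.0 and 76.1 TPM. Its log2 fold change was -0.32 (95% interval -0.65 to -0.0019, adjusted p = 0.104 by limma). Both genes were lower in both Pax5(-/-) libraries than in any wild-type library, at 69.0% of the wild-type mean for Smc1a and 79.6% for Smc3, and the intervals leave room for a fall of Smc1a as large as that of Rad21.

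Both Stag genes, whose products are alternative subunits of the ring, fell. Stag1, on chromosome 9 from 100498217 to 100858964, was listed at 39.2, 44.6 and 49.2 TPM in the wild-type libraries, and at 27.6 and 22.1 TPM in Pax5(-/-) libraries, with a log2 fold change of -0.83 (95% interval -1.19 to -0.46, adjusted p = 0.0055 by limma). Stag2, on the X chromosome from 39502494 to 39630362, was listed at 59.7, 63.9 and 73.2 TPM and at 45.6 and 41.3 TPM, with a log2 fold change of -0.59 (95% interval -0.88 to -0.29, adjusted p = 0.010 by limma). The more abundant Stag2 thus kept 66.2% and Stag1 56.0% of its wild-type mean. Smc1a and Stag2 are X-linked, and the sex-linked transcripts differed between libraries. Xist, the RNA of the inactive X chromosome, was listed at 4.32, 0 and 0.0615 TPM in the wild-type libraries, and at 14.2 and 7.60 TPM in Pax5(-/-) libraries. The mm9 entry of Xist is marked as overlapping another gene, so that these values are uncertain. From the Y chromosome, Eif2s3y was listed at 25.3 to 40.7 TPM and at 17.6 and 21.1 TPM. Ddx3y, Kdm5d and Uty, also on the Y chromosome, overlapped between the genotypes and did not pass. The part of the sex-linked transcripts in the values of Smc1a and Stag2 was not tested.

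Nipbl, which loads cohesin, had the largest fall of the 10 genes. It lies on chromosome 15 from 8241225 to 8394463 on the reverse strand. Nipbl was listed at 41.1, 58.8 and 66.9 TPM in the wild-type libraries, and at 24.3 and 19.2 TPM in Pax5(-/-) libraries. The wild-type libraries spread widely, and the lowest of them was still above both Pax5(-/-) libraries. The mean was 55.6 ± 13.2 TPM (SD, n = 3) in wild-type cells and 21.7 ± 3.59 TPM (SD, n = 2) without Pax5, which is 39.1% of the wild-type level. The log2 fold change was -1.32 (standard error 0.22, 95% interval -1.82 to -0.81, adjusted p = 0.0032 by limma).

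Pds5a and Pds5b, the partners of Wapl on the ring, both fell, in the direction opposite to Wapal. Pds5a, on chromosome 5 from 66006499 to 66089095, was listed at 85.8, 94.9 and 112 TPM in the wild-type libraries, and at 68.3 and 56.0 TPM in Pax5(-/-) libraries. Its log2 fold change was -0.65 (95% interval -0.99 to -0.30, adjusted p = 0.012 by limma). Pds5b, on the same chromosome from 151476314 to 151613265, was listed at 41.8, 45.7 and 48.4 TPM and at 26.9 and 21.5 TPM, with a log2 fold change of -0.90 (95% interval -1.23 to -0.56, adjusted p = 0.0029 by limma). Neither gene overlapped between the genotypes.

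Ctcf, the zinc finger protein that stops loop extrusion, had the smallest fall among those called. It lies on chromosome 8 of mm9 from 108160468 to 108206822. Ctcf was listed at 206, 239 and 241 TPM in the wild-type libraries, and at 169 and 159 TPM in Pax5(-/-) libraries. It kept 72.0% of its wild-type mean, with a log2 fold change of -0.47 (95% interval -0.72 to -0.22, adjusted p = 0.012 by limma).

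**Figure D2:**
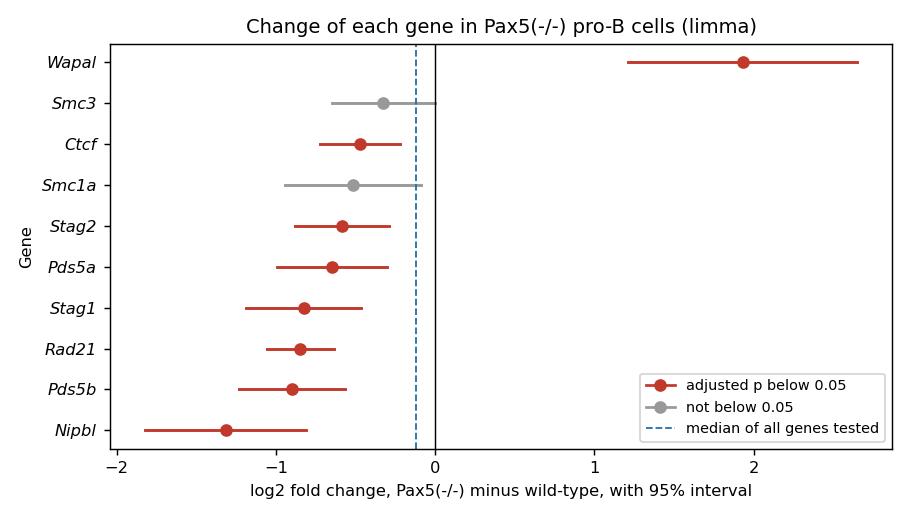
Log2 fold change of each member, Pax5(-/-) against wild-type, on log2(TPM + 0.5), with 95% intervals from limma; red marks members called at the adjusted threshold and grey those not called, and the dashed line marks the median of all genes tested at -0.12. Wapal lies at 1.93, and the other members lie between -1.32 for Nipbl and -0.32 for Smc3.

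Within each genotype, the libraries differed in a shared way. Wild-type replicate 3 had the highest wild-type value for all 10 members and wild-type replicate 1 the lowest for 9, and Pax5(-/-) replicate 1 was above replicate 2 for all 10. All genes tested leaned the same way. Their median log2 fold change of -0.12 became -0.063 without wild-type replicate 3 and -0.17 without wild-type replicate 1. It was -0.14 without Pax5(-/-) replicate 1 and -0.085 without Pax5(-/-) replicate 2. The share of all genes with the order seen in the members was not counted. The summed level of the 10 genes was 1074, 1151 and 1291 TPM in the wild-type libraries and 818 and 721 TPM in Pax5(-/-) libraries. The calls depended on both Pax5(-/-) libraries being present. With 1 of them left out, the other has no spread of its own, and calls were lost among the members and among all genes tested alike. Without Pax5(-/-) replicate 1 the log2 fold change was 1.86 for Wapal, -0.91 for Rad21 and -1.48 for Nipbl. Without Pax5(-/-) replicate 2 it was 2.00, -0.78 and -1.15. At an unadjusted p-value below 0.05 (limma), all 5 libraries gave 9 members lower and 1 higher. The share of all genes passing that looser threshold was not counted, so that this count cannot be set against all genes. That share is at least the 21.5% lower and 15.6% higher called at the stricter adjusted threshold.

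The order of the levels changed at its lower end. In wild-type cells, Rad21 was followed by Ctcf, Smc1a, Smc3, Pds5a, Stag2, Nipbl, Pds5b, Stag1 and Wapal. Neighbours whose libraries overlapped in that order were Smc3 with Pds5a, Stag2 with Nipbl, Nipbl with Pds5b, and Pds5b with Stag1. Rad21 had 40.3 times the mean TPM of Wapal. In Pax5(-/-) cells the first 6 places were held by Rad21, Ctcf, Smc1a, Smc3, Pds5a and Stag2, with no overlap between neighbours, and Wapal came next, above Stag1, Pds5b and Nipbl, which overlapped. Wapal made up 0.573% to 1.05% of the summed TPM of the 10 genes in wild-type libraries and 4.34% and 4.45% in Pax5(-/-) libraries, while the share of Nipbl was 3.83% to 5.18% and 2.66% and 2.97%.

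Ratios between members were taken within a library, with 0.5 TPM added to each value, and so hardly depend on how that library was scaled. The ratio of Wapal to the mean of Smc1a, Smc3 and Rad21 was 0.0335, 0.0386 and 0.0614 in the wild-type libraries and 0.256 and 0.263 in the Pax5(-/-) libraries, a 6.04-fold higher ratio. The ratio of the loader Nipbl to the release factor Wapal was 6.25, 7.69 and 4.78 in the wild-type libraries and 0.688 and 0.605 in the Pax5(-/-) libraries. Nipbl transcripts thus outnumbered those of Wapal in every wild-type library and were fewer in both Pax5(-/-) libraries, a 9.49-fold lower ratio. The ratio of Stag1 to Stag2 was 0.659, 0.699 and 0.675 against 0.610 and 0.540, that of Pds5a to Pds5b was 2.04, 2.07 and 2.30 against 2.51 and 2.57, and that of Ctcf to Rad21 was 0.571, 0.665 and 0.661 against 0.808 and 0.829. None of the 5 ratios overlapped between the genotypes. The exact permutation test over the 10 splits of these libraries, two-sided, cannot give a p-value below 0.1; it gave 0.1 for each ratio (adjusted p = 0.125) except Pds5a to Pds5b, for which it gave 0.2 (adjusted p = 0.2).

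**Figure D3:**
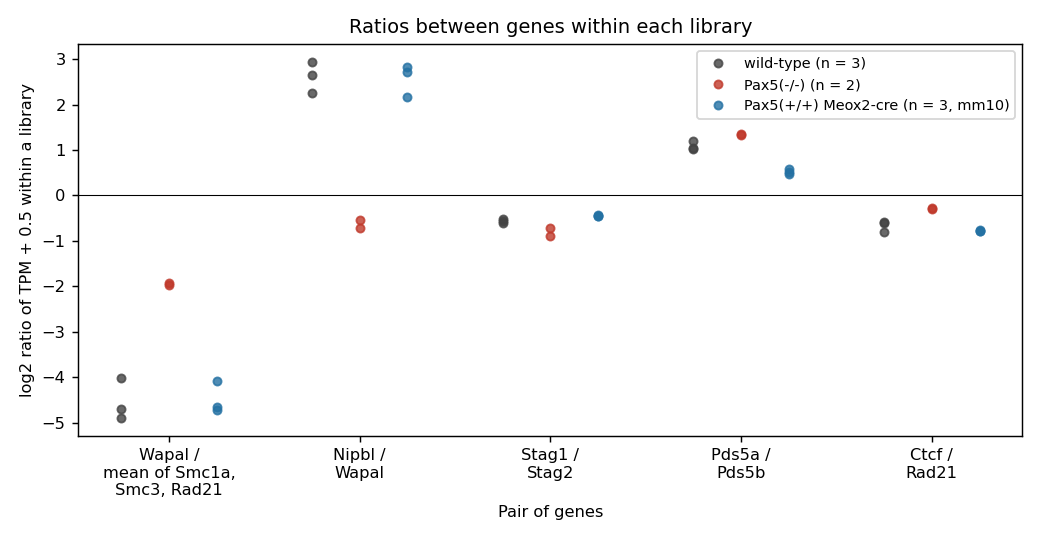
Log2 ratio of TPM + 0.5 within each library for 5 pairs or sets of members, with a point for each wild-type, Pax5(-/-) and Meox2-cre library. The mean log2 ratio of Wapal to the ring genes lies at -4.54 in wild-type and at -1.95 in Pax5(-/-) libraries, and that of Nipbl to Wapal at 2.62 and at -0.63, on opposite sides of the line of equal levels.

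The Meox2-cre pro-B cells gave a second set of levels for cells with Pax5, which was listed there at 376 to 397 TPM. These libraries were aligned to another build with other software, so that levels are given side by side without a test. Wapl was listed at 8.44, 11.9 and 7.71 TPM, inside the range of the wild-type libraries. Nipbl was listed at 58.8, 54.9 and 57.9 TPM, Rad21 at 394, 366 and 380 TPM, and Ctcf at 229, 217 and 221 TPM. Smc1a was listed at 173, 167 and 173 TPM and Smc3 at 105, 98.6 and 98.1 TPM. Rad21, Stag1 at 56.9 to 60.9 TPM, Stag2 at 77.7 to 83.7 TPM and Pds5b at 50.8 to 56.6 TPM were above every wild-type library of the mm9 tables, and Pds5a at 76.3 to 78.7 TPM was below every one. The order of the levels was Rad21, Ctcf, Smc1a, Smc3, Stag2, Pds5a, Stag1, Nipbl, Pds5b and Wapl, in which Stag2 overlapped with Pds5a, Stag1 with Nipbl, and Nipbl with Pds5b. Wapl made up 0.643% to 1.00% of the summed TPM, and the ratio of Nipbl to Wapl was 6.63, 4.48 and 7.11. The ratio of Pds5a to Pds5b was below that of every wild-type library, with a mean log2 ratio of 0.52 beside 1.09, and here the mice and the processing cannot be told apart.

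Other genes of chromosome structure mostly fell as well. Of 36 genes in 5 lists, 32 were tested, of which 19 were lower and 1 was higher, with a median log2 fold change of -0.47; 21.5% of all genes tested were lower and 15.6% higher. Among 13 cohesin regulators, 8 were lower, 5 did not pass and none was higher at an adjusted or an unadjusted p-value below 0.05. Esco2, which acetylates Smc3 in S phase, was listed at 41.2, 49.1 and 53.9 TPM in wild-type and at 18.6 and 16.7 TPM in Pax5(-/-) libraries, with a log2 fold change of -1.41 (adjusted p = 4.5e-04 by limma). Hdac8, which removes that acetyl group, was listed at 34.7, 35.0 and 41.5 TPM and at 13.5 and 15.6 TPM, with a log2 fold change of -1.32 (adjusted p = 5.4e-04). Sgol2, a shugoshin that protects cohesin at centromeres, had a log2 fold change of -1.06 (adjusted p = 0.0034). Esco1, an acetyltransferase of Smc3 that is present throughout the cell cycle, had a log2 fold change of -0.75 (adjusted p = 0.029), a call that was lost under 5 of 15 alternatives. Mau2, the partner of Nipbl in the loader, was listed at 40.3, 45.4 and 58.5 TPM and at 41.2 and 36.1 TPM and did not pass.

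All 8 condensin genes, whose products fold chromosomes for mitosis, were lower, with a median log2 fold change of -0.78. Beside these and the following lists, 21.5% of all genes tested were called lower and 15.6% higher. The largest values were -1.10 for Ncapg2, -1.01 for Ncaph, -0.94 for Ncapg and -0.79 for Smc4; the entries of Ncapg and Ncaph2 are marked in the tables as overlapping another gene, and their values are therefore uncertain. The call of Ncaph2 (log2 fold change -0.30) was lost under 8 of 15 alternatives and that of Ncapd2 (-0.46) under 4, both of them after rescaling by median ratios. In the Smc5/6 complex, which acts in DNA repair, 1 of 6 genes was lower, no larger a share than among all genes, Smc6 with a log2 fold change of -0.64 (adjusted p = 0.012 by limma), and 5 did not pass. Among 4 architectural factors, Zfp143 at -0.71 (adjusted p = 0.033 by limma) and Maz at -0.35 (adjusted p = 0.027) were lower, calls that were lost under 4 and 7 of 15 alternatives. Ldb1, which bridges enhancers and promoters, was the one gene of the lists that rose, from 239, 269 and 243 TPM to 349 and 335 TPM, with a log2 fold change of 0.45 (adjusted p = 0.0095 by limma). Yy1, at 145, 191 and 152 TPM and at 150.4 and 149.5 TPM, did not pass. Among 5 germline paralogs of cohesin and Ctcf, Stag3 alone reached the level for a test, at 2.96, 4.11 and 7.76 TPM and at 5.46 and 3.80 TPM, and it did not pass; Rad21l was listed at 0 in all libraries, and Smc1b, Rec8 and Ctcfl were below 1 TPM in each.

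**Figure D4:**
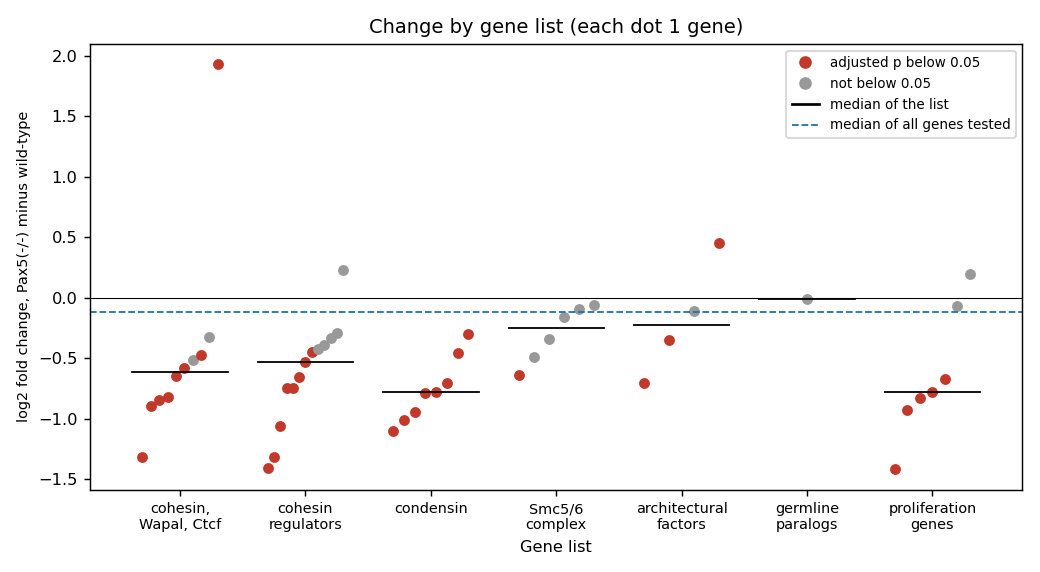
Log2 fold change on log2(TPM + 0.5), Pax5(-/-) against wild-type, with 1 point for each tested gene of each list, red where the gene was called and grey where it was not, and a bar for the median of the list. All 8 condensin genes lie below zero with a median of -0.78, and Wapal at 1.93 and Ldb1 at 0.45 are the called genes above zero.

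Genes of dividing cells moved with these lists. Of 7 proliferation genes, 5 were lower and none was higher at an adjusted or an unadjusted p-value below 0.05 (limma), with a median log2 fold change of -0.78. Of all genes tested, 21.5% were lower and 15.6% higher at the adjusted threshold. Mki67, a marker of cycling cells, was listed at 171, 211 and 307 TPM in the wild-type libraries, and at 97.8 and 70.3 TPM in Pax5(-/-) libraries, and Top2a, which untangles mitotic chromosomes, at 393, 364 and 527 TPM and at 235 and 208 TPM. Among the wild-type libraries, Mki67, Top2a, Ccnb1 and Cdk1 were highest in replicate 3, as were all 10 members, whereas Mcm2, Mcm5 and Pcna were highest in replicate 1. Mcm2, of the replicative helicase, was listed at 464, 428 and 381 TPM and at 529 and 443 TPM, and Mcm5 at 516, 423 and 475 TPM and at 473 and 422 TPM; both overlapped between the genotypes and did not pass. The part of cell division in the lower values of the members was not tested.

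Markers of other blood cells also differed. All 4 erythroid markers were lower, with a summed level of 116, 215 and 261 TPM in the wild-type libraries and of 55.8 and 10.5 TPM in Pax5(-/-) libraries. The 6 myeloid markers summed to 41.6, 168 and 140.1 TPM and to 55.1 and 73.4 TPM, so that the sums overlapped, but single markers moved in both directions. Of these markers, 2 were called lower and 4 were not called. Elane, at 5.64 to 16.5 TPM in wild-type and at 0 and 2.76 TPM in Pax5(-/-) libraries, and Itgam were lower. Mpo, at 11.1 to 34.5 TPM and at 37.8 and 42.1 TPM, lay above every wild-type library and did not pass. The 6 T cell markers summed to at most 1.80 TPM in wild-type and to 6.70 and 7.36 TPM in Pax5(-/-) libraries, where Cd3e was listed at 0. Most of this was Cd4, at 0.368 to 0.712 TPM and at 3.97 and 5.88 TPM. Trat1 was listed at up to 0.179 TPM and at 2.38 and 0.599 TPM. Cd3d, Cd3g and Cd8a overlapped between the genotypes and were too low for a test. Of the 4 NK cell markers, Nkg7 and Gzma were higher and Klrb1c was lower, at 2.02 to 8.78 TPM in wild-type and at 1.07 and 1.25 TPM in Pax5(-/-) libraries, where the defining receptor Ncr1 was listed at 0. The list summed to 4.69 to 14.7 TPM and to 22.3 and 29.2 TPM. The 4 plasmacytoid dendritic markers moved in both directions: Irf8, which B lineage cells also express, was lower, at 231 to 241 TPM in wild-type and at 40.4 and 78.4 TPM in Pax5(-/-) libraries, and Siglech was higher, at up to 1.12 TPM and at 1.79 and 9.06 TPM. Bst2, at 83.0 to 123 TPM and at 119.9 and 163 TPM, did not pass, and Ccr9 was below 1 TPM in each of these libraries. The part of other blood cells in the values of Wapal and of the other members was not tested.

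The members have long transcripts, and long transcripts tended to be lower in the Pax5(-/-) libraries. The longest coding transcript of the members in the GENCODE annotation of mm9 spans 3604 bases for Rad21 to 8815 bases for Nipbl, with a median of 5511 bases, beside 2916 bases for all tested genes with a length. When the tested genes were put into 10 bins of equal size by length, the median log2 fold change was -0.03 in the bin of the shortest and -0.31 in the bin of the longest transcripts. Among the 3632 tested genes within the length range of the members, the median was -0.20, with 25.4% lower and 13.1% higher. With each library centred within 10 bins of transcript length, a setting chosen after seeing the data, 6 members remained lower. Wapal, with a transcript of 6351 bases, remained higher at a log2 fold change of 2.24 (adjusted p = 5.3e-04 by limma). Under this setting, 2274 of all genes tested were called lower and 2492 higher. Stag2 was then at -0.27 (adjusted p = 0.059).

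**Figure D5:**
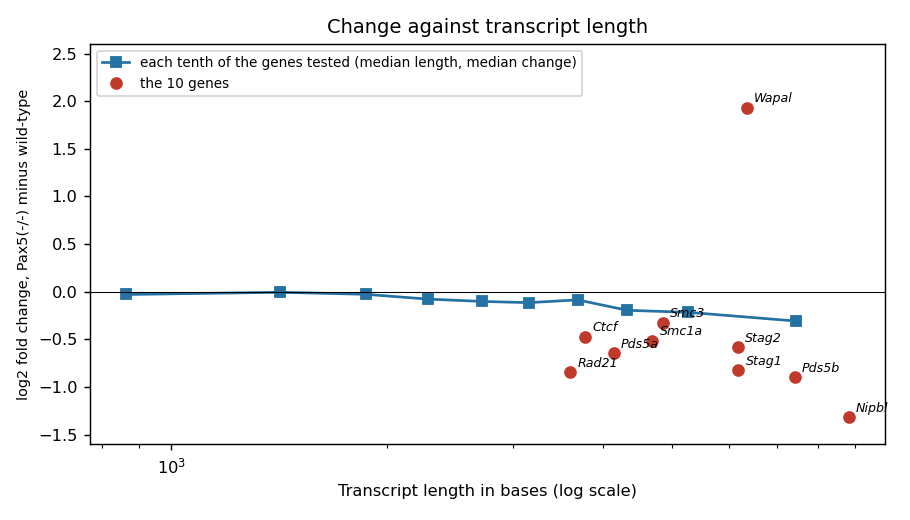
Log2 fold change on log2(TPM + 0.5), Pax5(-/-) against wild-type, plotted against transcript length in bases on a log axis, with labelled points for the members and a line through the median length and median change of 10 bins of tested genes. The line drops from -0.03 to -0.31 with length, and Wapal lies above it while the other 9 members lie below it.

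The 5 genes with a pattern most like that of Wapal were Tubb6, Nrgn, Galnt14, Tcam1 and 5830418P13Rik, whose entry is marked as overlapping another gene and is therefore uncertain. Likeness was the root mean square difference of log2(TPM + 0.5), centred on the wild-type mean, over 5 libraries, and these 5 of 9840 candidate genes had values of 0.18 to 0.23. Tubb6, a beta-tubulin, was listed at 1.31, 1.71 and 2.46 TPM in the wild-type libraries, and at 7.47 and 7.85 TPM in Pax5(-/-) libraries. Nrgn, neurogranin, which binds calmodulin, was listed at 141, 121 and 233 TPM and at 553 and 629 TPM. As for Wapal, the highest wild-type value of Tubb6 and Nrgn was that of replicate 3, which the choice by likeness over these libraries favoured.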

How the data were processed

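The 10 members and the gene lists were chosen with earlier results of these data known. The authors deposited TPM values, which they derived from featureCounts output and the length of each gene; polyadenylated RNA had been read as single ends per the study's list of experiments, although its methods name paired-end alignment for the mm10 tables. Per the labels and methods, reads of the wild-type and Pax5(-/-) libraries were freed of ribosomal RNA, aligned to mm9 with TopHat 1.4.1a and counted with featureCounts 1.5.0 on a modified refGene annotation. Those of the Meox2-cre libraries were aligned to mm10 with STAR 2.4.2a. TPM keep no depth, so no count model, counting interval or detection floor was used, and a few abundant genes can shift all others.

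Entries were matched by symbol, with Wapal listed as Wapl in mm10. Log2(TPM + 0.5) values were fitted by genotype with limma 3.58.1 in R 4.3.3 (eBayes with an intensity trend) after tests on simulated data, for genes averaging more than 1 TPM in wild-type or Pax5(-/-) cells, with Benjamini-Hochberg adjustment. Ratios were compared by exact permutation. Named were all members, and per list up to 4 called genes with the largest change in each direction; Mau2, Yy1, the germline paralogs and the proliferation, sex-linked and cell type markers given by value were chosen after their values were seen. Replicate numbers only name libraries. Lengths are those of the longest coding transcript in GENCODE vM1. Alternatives covered pseudocount, filter, variance model, scaling, transcript length and libraries left out. The ChIP-seq, Pax5(Jak2/+) and B-ALL samples were not analysed here. One marker gene is not reported here. Python 3.11.15, numpy 2.4.6, pandas 2.3.3 and matplotlib 3.10.9 made the tables and figures.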

Additional observations from a re-analysis of the deposited data

How the results depend on the processing

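No paired analysis was possible because no replicate number is given in the labels. Over 10 alternatives in pseudocount, filter, variance model, scaling or transcript length, 6 to 7 members were called lower, 1 higher, and 1 higher past the thresholds of the study; of the other pathway genes 15 to 19 were lower and 1 was higher. Leaving out a wild-type library gave 7 to 8 members lower and 1 higher, with Wapal at 1.72 to 2.26, 17 to 21 pathway genes lower and 1 higher, and 1958 to 3233 of all genes lower and 1597 to 1977 higher. Leaving out a Pax5(-/-) library, after which the remaining one is assumed to vary like the wild-type libraries, gave 1 to 4 members lower and 0 higher, with Wapal at 1.86 and 2.00, 0 past the thresholds of the study, 6 to 8 pathway genes lower and 0 higher, and 825 to 990 of all genes lower and 704 to 799 higher, in place of 2596 and 1885. The split of all calls was 2249 lower and 2413 higher with median ratios, 2421 and 2455 with quantile normalization, and 2274 and 2492 with length bins. Of 150 values of single members, 137 stayed on their side of the threshold, 12 lost and 1 gained the call, and none changed sign; of 300 values of 20 called pathway genes, 46 lost it and none changed sign. With a library left out, the log2 difference of the ratios ranged from 2.42 to 2.85 for Wapal to the ring genes, -3.43 to -3.08 for Nipbl to Wapal, -0.33 to -0.15 for Stag1 to Stag2, 0.22 to 0.31 for Pds5a to Pds5b and 0.30 to 0.41 for Ctcf to Rad21. The unknown depth limits what can be said of the genes below 1 TPM.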
